A study of Homo sapiens with 20 samples.

Results

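The interval examined lies on chromosome 11 (hg19, chr11:34850000-35700000) and contains start sites of 7 protein-coding genes, of which APIP, PDHX, CD44, SLC1A2, PAMR1 and FJX1 are described here. TRIM44, the other one, had no anchor pair within 3 kb of its start sites in any list. Its members were the anchor pairs, or loops, with either anchor overlapping the interval, which came to 2039 of the 572000 distinct anchor pairs listed in any of 4 cell lines. A loop was assigned to a gene when an anchor lay within 3 kb of one of its transcript starts. The interval was selected on the loop strengths of these same lists, because its loops differed between STAG2-mutant and STAG2-corrected cells. Its counts, strengths and ratios are therefore given as descriptions, with no test.

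Hi-C, which captures pieces of chromatin that lie close together in the nucleus, was performed on 2 pairs of isogenic human glioblastoma (GBM) cell lines. H4 and 42MGBA cells carry an endogenous mutation of STAG2, a subunit of the cohesin complex, and the H4 88-1 and 42MGBA 53-1 lines are gene-edited derivatives of them in which that mutation was corrected. Each correction is represented by 1 derivative line. The authors pooled 2 replicates of each cell line into 1 list of the 300000 strongest anchor pairs, so that the spread between replicates could not be computed and every difference below compares 4 pooled libraries.

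Cohesin extrudes loops of chromatin and is halted at sites bound by the CTCF protein, most often at a pair of sites whose motifs point toward each other. Such loops can bring a promoter close to distant regulatory sequence or keep them apart. In the brain, SLC1A2 encodes the main glutamate transporter of astrocytes (EAAT2), while CD44 encodes a cell-surface receptor for hyaluronan that is a marker of mesenchymal glioma. PDHX encodes the E3-binding protein of the pyruvate dehydrogenase complex, and its neighbor APIP, which starts in the same anchor on the opposite strand, encodes an enzyme of methionine salvage. FJX1 encodes the human counterpart of the Drosophila four-jointed kinase, and PAMR1 a secreted protein with a peptidase-like domain.

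On hg19 with GENCODE release 44, the genes lay in the following order. APIP (ENSG00000149089.13_8, minus strand) spanned chr11:34874641-34937926. PDHX (ENSG00000110435.13_7, plus strand) spanned chr11:34937376-35042138. CD44 (ENSG00000026508.21_16, plus strand) spanned chr11:35160429-35253949. SLC1A2 (ENSG00000110436.13_17, minus strand) spanned chr11:35272752-35441610, so that its 5′ start faced away from CD44. PAMR1 (ENSG00000149090.13_9, minus strand) spanned chr11:35453370-35551848, and FJX1 (ENSG00000179431.7_6, plus strand) spanned chr11:35640008-35642413.

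Some ends of the strongest loops of the interval lay at or beside an anchor with a match to the core of the CTCF motif. A match is a run of 12 bases, on either strand, that reads CCA, any 2 bases, AG, any 2 bases and GGC. How often loops elsewhere have a match at or beside an end was not computed. Further matches in anchors of the loop groups described below are not printed, among them those in chr11:35186660-35191443 (CD44) and chr11:36167721-36172732 (LDLRAD3). These windows of 60 bases are a selection that lies at or beside ends of those groups. Each is printed 5′ to 3′ on the strand of its match, with the match in capitals, and none overlaps an annotated exon of a protein-coding gene.
Left of APIP, intergenic, plus strand, chr11:34607928-34607987: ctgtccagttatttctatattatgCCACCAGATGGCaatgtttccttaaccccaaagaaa
APIP intron, minus strand, chr11:34920722-34920781: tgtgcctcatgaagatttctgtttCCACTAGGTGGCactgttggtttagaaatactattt
CD44 intron near the 5′ start, minus strand, chr11:35164079-35164138: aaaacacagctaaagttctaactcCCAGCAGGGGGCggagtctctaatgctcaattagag
SLC1A2 intron, plus strand, chr11:35413958-35414017: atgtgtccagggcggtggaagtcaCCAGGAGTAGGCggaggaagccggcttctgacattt
SLC1A2 intron nearer the 5′ start, minus strand, chr11:35434029-35434088: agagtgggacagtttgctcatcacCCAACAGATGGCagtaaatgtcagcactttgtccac
Upstream of FJX1, plus strand, chr11:35637881-35637940: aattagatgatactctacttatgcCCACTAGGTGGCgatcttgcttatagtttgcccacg
Beyond FJX1, intergenic, minus strand, chr11:36287728-36287787: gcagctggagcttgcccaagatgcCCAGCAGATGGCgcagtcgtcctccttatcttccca

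These letters are not particular to the interval. A match was present in 40 of the 250 anchors of its loops (16%), in 17.3% of the 6965 anchors of chromosome 11 and in 16.1% of the 128561 anchors of the 4 lists. The left anchor of the strongest APIP loops and the anchor upstream of FJX1 hold a plus-strand match. The APIP anchors that these loops join (chr11:34907975-34917752) hold none, and the minus-strand match printed for APIP lies in the anchor that follows them. Beyond FJX1, the anchors of the strongest loops (chr11:36275200-36284818) likewise hold none and are followed by the anchor with the minus-strand match. The first anchors of the strongest loops from PDHX to SLC1A2 (chr11:34942015-34951728) hold no match in either direction, whereas the shared start anchor of APIP and PDHX, just before them, holds a minus-strand match at chr11:34938439-34938450 in a PDHX intron. No CTCF binding was measured here, and a match is a description of the letters only.

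The 4 lists differed in how many of their loops fell in the interval. H4 listed 1473 anchor pairs, H4 88-1 listed 1399, 42MGBA listed 915 and 42MGBA 53-1 listed 237, or 0.491, 0.466, 0.305 and 0.079% of each list. The 2 lines of the H4 pair were thus close, while the 42MGBA pair differed widely. Loop strength is the bias-corrected and enhanced contact signal. The strongest loop of H4, from PDHX to SLC1A2 with a strength of 27.2 (rank 31), and that of H4 88-1, from left of APIP to APIP with 29.7 (rank 4), were different anchor pairs. 42MGBA and 42MGBA 53-1 shared theirs, from left of APIP to APIP, at 15.1 (rank 2040) against 8.69 (rank 20058). In turn, the lowest strength that entered a list was 4.14, 4.44, 4.49 and 4.28 in these lines. Loops had a median size of 418 kb in H4 against 425 kb in H4 88-1, and 306 kb in 42MGBA against 211 kb in 42MGBA 53-1.

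Few loops of the interval were listed in every line. Of the 2039 anchor pairs, 712 were in 1 list, 776 in 2, 444 in 3 and 107 (5.25%) in all 4. The most frequent pattern was listing in both lines of the H4 pair and in neither line of the 42MGBA pair, with 618 anchor pairs (30.3%). A further 278 were listed only in H4, 209 only in 42MGBA, 192 only in H4 88-1 and 33 only in 42MGBA 53-1. An anchor pair absent from a list had a strength below the lowest one listed, which does not mean that it made no contact.

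**Figure D1:**
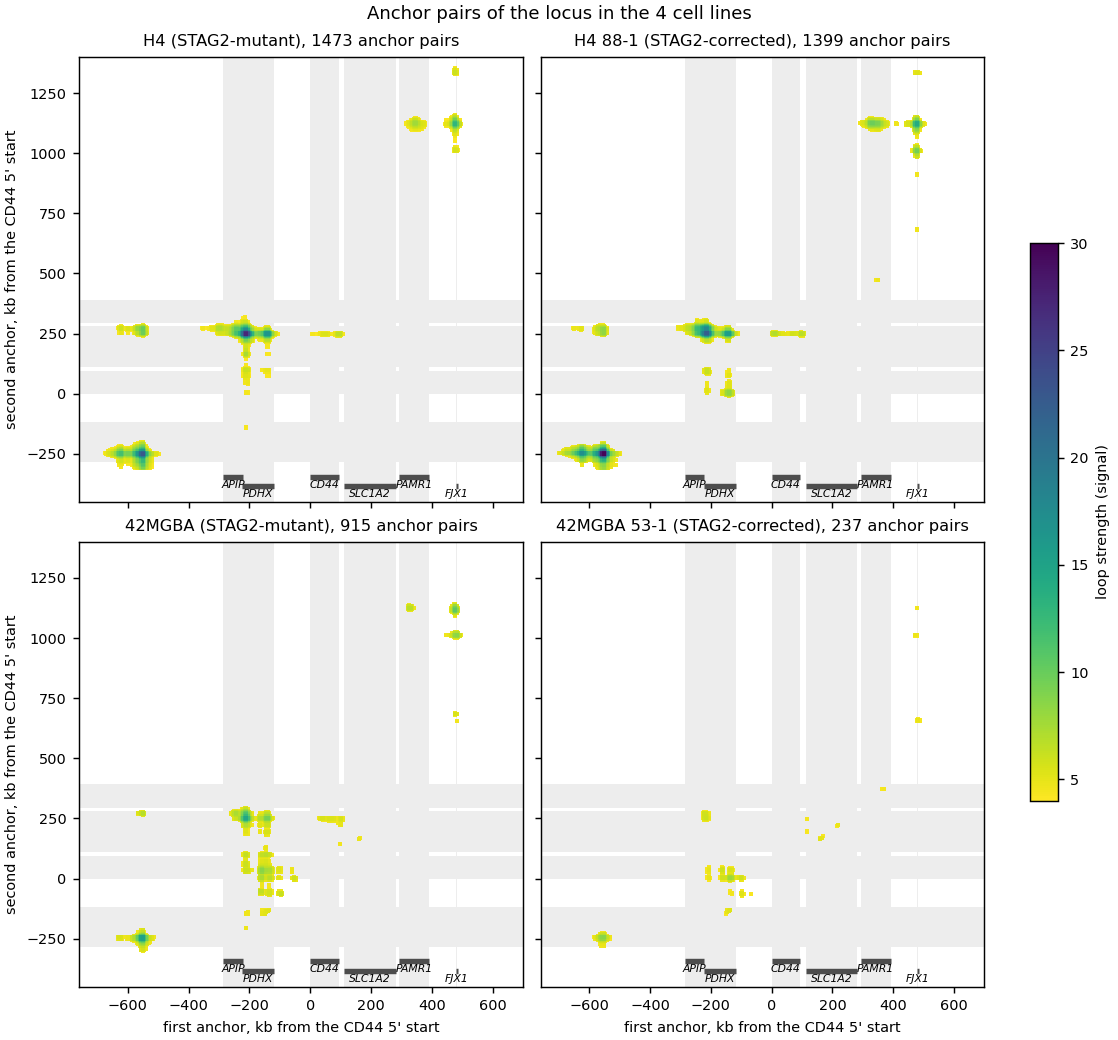
Anchor pairs of the interval in each of the 4 cell lines, with the first anchor on the x axis and the second on the y axis, both in kb from the CD44 5′ start, and the color giving the loop strength. Gray bands and bars mark the 6 genes. The maps of H4 and H4 88-1 are led by 2 clusters, from left of APIP to APIP and from PDHX to SLC1A2, which are paler in 42MGBA and smaller and paler still in 42MGBA 53-1, while the small cluster of PDHX with the CD44 start (near 0 on the y axis) is seen in 3 of the lines and not in H4.

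For the comparison of genotypes, the 100000 strongest loops of the lines of a pair were merged, with a line's lowest listed strength standing in for any loop missing from its list. A line was fitted to corrected against mutant strength over all merged loops, and a loop was called specific to a genotype when the z-score of its residual lay beyond 1.96 in either direction. In the H4 pair, 817 merged loops lay in the interval. Of these, 29 (3.55%) were specific to the STAG2-mutant H4 cells, beside 2.17% of all merged loops, and 35 (4.28%) to the STAG2-corrected H4 88-1 cells, beside 1.94%. The 2 directions were thus nearly balanced, and the median log2 ratio of corrected to mutant strength was 0.13, with quartiles of -0.14 and 0.33. The median was 0.07 over all merged loops and 0.14 over the rest of chromosome 11. The balance rested on the form of the regression: with an intercept, 5 loops were specific to mutant and 70 to corrected cells, and with the log2 ratio scored, 5 and 15.

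In the 42MGBA pair, 237 merged loops lay in the interval, and nearly all were weaker in the STAG2-corrected cells. A total of 51 (21.5%) were specific to the STAG2-mutant 42MGBA cells, beside 2.45% of all merged loops, and 0 to the STAG2-corrected 42MGBA 53-1 cells, beside 1.61%. Strength was lower in 42MGBA 53-1 at 227 of the 237 loops (95.8%), the median log2 ratio was -0.65 with quartiles of -0.82 and -0.57, and 119 loops were absent from its list. Over the 118 loops listed in both lines the median was -0.61.

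This lower strength in 42MGBA 53-1 was shared with the loops of the same chromosome on the same side of its largest gap without an anchor (chr11:50044427-55699169). The merged loops before the gap, here called the stretch and leaving out the interval, had a median log2 ratio of -0.66 over 1601 loops, and 18.2% of them were specific to 42MGBA. After the gap the median was -0.33 over 5419 loops, and over all merged loops of the genome it was -0.11. In bins of 5 Mb the medians ran from -0.73 to -0.64 in the 9 bins before the gap and from -0.51 to -0.14 in the 15 bins after it. The list of 42MGBA 53-1 held 1622 anchor pairs of chromosome 11 before the gap, against 6096 in 42MGBA, 9667 in H4 and 9214 in H4 88-1. A change local to the interval and a change of the whole stretch cannot be told apart from the ratios alone, and its cause was not tested, so the values of the 42MGBA pair below are also set beside the median of the stretch. The H4 pair had a median of 0.12 over the same stretch without the interval.

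**Figure D2:**
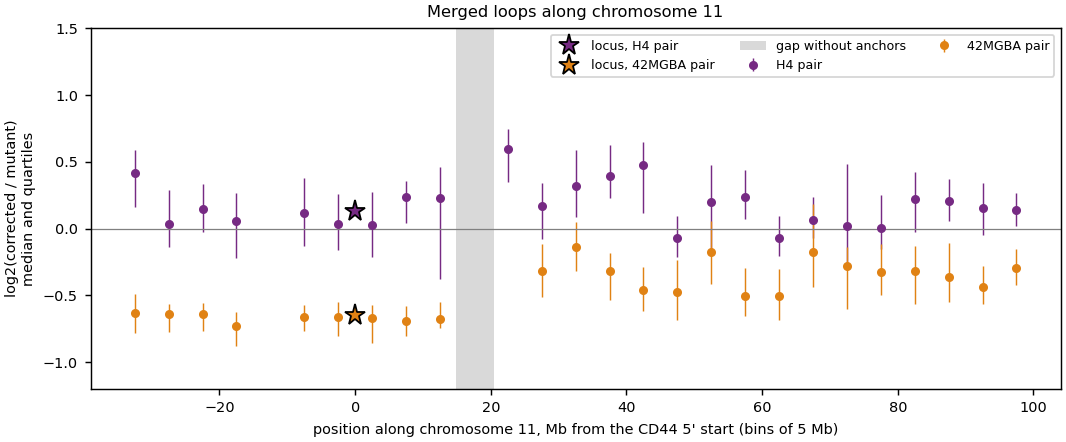
Median log2 ratio of corrected to mutant loop strength along chromosome 11 in bins of 5 Mb, in Mb from the CD44 5′ start, with bars from the lower to the upper quartile of the loops in a bin. The star of the interval in the 42MGBA pair (-0.65) sits among the other bins before the gray gap, all between -0.73 and -0.64, and the star of the H4 pair (0.13) sits among bins of 0.03 to 0.42.

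Because neighboring anchor pairs share signal, loops whose anchors both lay within 10 kb of each other were joined, which placed the 862 merged loops of either pair in 19 groups. The 2 largest groups held 625 of them (72.5%). One joined a region left of APIP to the body and start of APIP. That region overlaps CAT, which encodes catalase, and the epithelial transcription factor genes ELF5 and EHF, while the anchor of its strongest loops (chr11:34606578-34611409) is intergenic. The other joined APIP and PDHX to SLC1A2 and reached the last part of PAMR1. In the H4 pair these 2 groups went in opposite directions. The counts of specific loops by group and gene below stand beside the shares over all merged loops. Those shares were 2.17% mutant-specific and 1.94% corrected-specific in the H4 pair, and 2.45% and 1.61% in the 42MGBA pair. In the chromosome 11 stretch the 42MGBA pair had 18.2% and 0%.

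The PDHX to SLC1A2 group was, by its median, weaker in STAG2-corrected cells of both pairs. It comprised 298 loops of 365 to 581 kb, with first anchors at chr11:34849807-35041275 and second anchors at chr11:35372223-35458792. Its highest strength, which was not at the same anchor pair in every line, reached 27.2 in H4 and 22.3 in H4 88-1, with 14.6 for 42MGBA and 6.06 for 42MGBA 53-1. Mutant-specific loops numbered 28 and corrected-specific loops 5 in the H4 pair, with a median log2 ratio of -0.10. Of these loops 105 were merged in the 42MGBA pair, of which 33 were specific to mutant cells and 0 to corrected cells, with a median of -0.73. In that pair the chromosome 11 stretch had a median of -0.66, with 18.2% of its loops specific to mutant cells.

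A total of 192 loops of the interval were merged in both pairs. Of these, 14 (7.29%) passed as mutant-specific in both, beside 0.25% of the 68322 loops merged in both pairs across the genome, and 0 were specific to STAG2-corrected cells in both, beside 0.119%. In the chromosome 11 stretch, 18.2% of loops were specific to 42MGBA and 0.698% to H4, and the share called in both was not computed. All 14 joined PDHX (chr11:34937249-34961314) to the SLC1A2 body (chr11:35396785-35416309) at sizes of 450 to 469 kb, through 5 first anchors and 4 second anchors, and they are neighbors that count as 1 joined group. The call in both pairs depended on the form of the regression. It held for 0 loops when the line was given an intercept or when the log2 ratio was scored in place of the residual, and for 7 when the line was fitted to chromosome 11 alone.

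The leading one of the 14, by the summed size of its z-scores, joined chr11:34946876-34951728, inside an intron of PDHX, to chr11:35406441-35411399, inside an intron of SLC1A2. Its strength was 27.2 in H4 against 20.4 in H4 88-1, and 13.5 in 42MGBA against 4.95 in 42MGBA 53-1. It was thus 1.34-fold lower after correction in H4 (z-score -4.58) and 2.73-fold lower in 42MGBA (z-score -4.63), where it also had the lowest log2 ratio of the interval, -1.45. It stayed past the cutoff in the 42MGBA pair with an intercept (-4.01), with the log2 ratio scored (-3.75) and with the fit on chromosome 11 before the gap alone (-3.95), an alternative added after the data were seen, whereas in the H4 pair it did not with an intercept (-1.29) or the log2 ratio (-1.43). The same SLC1A2 anchor joined the next PDHX anchor, chr11:34951729-34956624, with strengths of 23.4, 17.0, 11.3 and 4.48 in the same order of lines. The same PDHX anchor joined the next SLC1A2 anchor, chr11:35411400-35416309, with strengths of 26.2, 22.3, 14.6 and 5.51. The other 2 of the first 5 joined chr11:34942015-34946875 to chr11:35406441-35411399, at 24.7, 19.9, 12.5 and 5.43, and chr11:34946876-34951728 to chr11:35401619-35406440, at 20.5, 15.3, 10.7 and 4.34. Each of these 5 loops was strongest in H4, followed by H4 88-1 and then 42MGBA, and weakest in 42MGBA 53-1. Over the 14 loops, the medians of the listed strengths were 20.6, 16.0, 10.5 and 5.06, and 5 of the 14 were absent from the list of 42MGBA 53-1.

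The SLC1A2 end of these loops did not lie at the 5′ start of the gene. The anchor chr11:35411400-35416309, which holds a plus-strand match to the CTCF letters, contains an internal transcript start, and the anchor before it lies within 3 kb of that start. Across SLC1A2, the H4 pair changed direction. Seen from the PDHX anchor chr11:34946876-34951728, strength was 27.2 in H4 and 20.4 in H4 88-1 at the SLC1A2 anchor centered at -32.7 kb from the 5′ start, where negative distances lie inside the gene. It was 17.7 and 16.8 at -18.1 kb, and 12.6 and 16.0 at -8.25 kb. The strongest anchor in H4 88-1 was 1 anchor closer to the 5′ start than in H4, and H4 88-1 was the higher line at the anchors from -13.2 kb to 5.81 kb. The anchor at -8.25 kb holds the minus-strand match printed above.

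Over all loops of the PDHX to SLC1A2 group, the median log2 ratio in the H4 pair ran from -0.41 at the SLC1A2 anchor farthest inside the gene (chr11:35372223-35377209) through -0.14 at chr11:35406441-35411399 to 0.25 at chr11:35430872-35435842 and 0.32 at chr11:35440018-35444913, the anchor of the 5′ start. Of the 30 loops at chr11:35406441-35411399, 2 were higher in H4 88-1, while all 12 at the anchor of the 5′ start were. On the other side, the medians were 0.22 at the APIP anchor chr11:34927467-34932392 and -0.45 at the PDHX anchor chr11:34961315-34966138. The median in the 42MGBA pair was below -0.5 at every anchor of the group with a merged loop. No change of direction along SLC1A2 was seen: 42MGBA 53-1 was lower at each anchor. The size of the difference did vary. From the PDHX anchor chr11:34946876-34951728, the log2 ratio of the 42MGBA pair was -1.45 at -32.7 kb from the SLC1A2 5′ start and -1.07 at -8.25 kb.

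**Figure D3:**
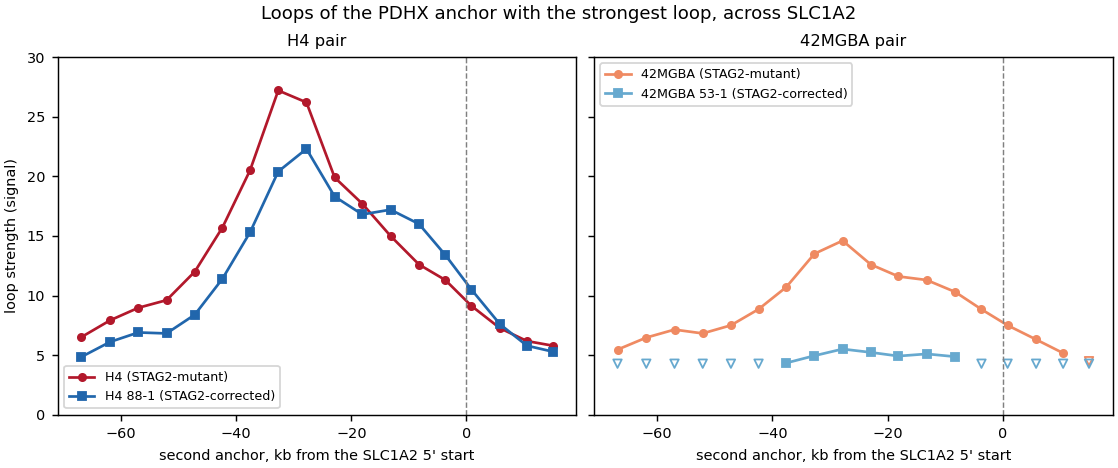
Loop strength between the PDHX anchor chr11:34946876-34951728 and each anchor across SLC1A2, by the distance of that anchor in kb from the SLC1A2 5′ start (dashed line, negative values inside the gene), for the H4 pair (left) and the 42MGBA pair (right). Open triangles at the bottom mark anchors absent from a list, drawn at the lowest listed strength. H4 exceeds H4 88-1 at the peak (27.2 and 20.4) and the lines cross before the 5′ start, whereas 42MGBA 53-1 stays at or below 5.51 throughout.

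The group from left of APIP to APIP went up with correction in H4 and down in 42MGBA. It comprised 327 loops of 234 to 436 kb between chr11:34476622-34650599 and chr11:34849807-34956624. The strongest loop of both H4 lines had a strength of 22.9 in H4 against 29.7 in H4 88-1, and the strongest of both 42MGBA lines, at the next APIP anchor, 15.1 in 42MGBA against 8.69 in 42MGBA 53-1. The H4 pair had 19 loops specific to corrected cells and 0 to mutant cells, 264 of the 327 were higher in H4 88-1 and the median log2 ratio was 0.24. Of 51 loops merged in the 42MGBA pair, 10 were specific to mutant cells and 0 to corrected cells, and the median was -0.58, above that of the chromosome 11 stretch (-0.66).

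In this way, 8 of the 192 loops merged in both pairs (4.17%) were specific to corrected cells in H4 and to mutant cells in 42MGBA, beside 0.155% of such loops in the genome, and 0 showed the reverse, beside 0.0585%. The leading one joined chr11:34606578-34611409, with the plus-strand match, to chr11:34912746-34917752 in APIP, with strengths of 21.4 in H4 against 29.2 in H4 88-1, and 15.1 in 42MGBA against 8.69 in 42MGBA 53-1. H4 88-1 was the highest of the 4 lines and 42MGBA 53-1 the lowest. The ratios were 1.37-fold higher after correction in H4 (z-score 4.23) and 1.74-fold lower in 42MGBA (z-score -3.2). Against the chromosome 11 stretch alone, the z-score of this loop in the 42MGBA pair was -0.88, and with the log2 ratio scored it was 1.06 (H4) and -1.93 (42MGBA). Across the stretch, 3.52% of loops were specific to H4 88-1 and 18.2% to 42MGBA, and the share called as both was not computed. Of these 8 loops, 7 joined chr11:34597301-34616387 to chr11:34907975-34917752, and 1 joined chr11:34942015-34946875 in PDHX to the SLC1A2 anchor chr11:35430872-35435842, with strengths of 12.2, 16.4, 9.66 and 5.67.

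**Figure D4:**
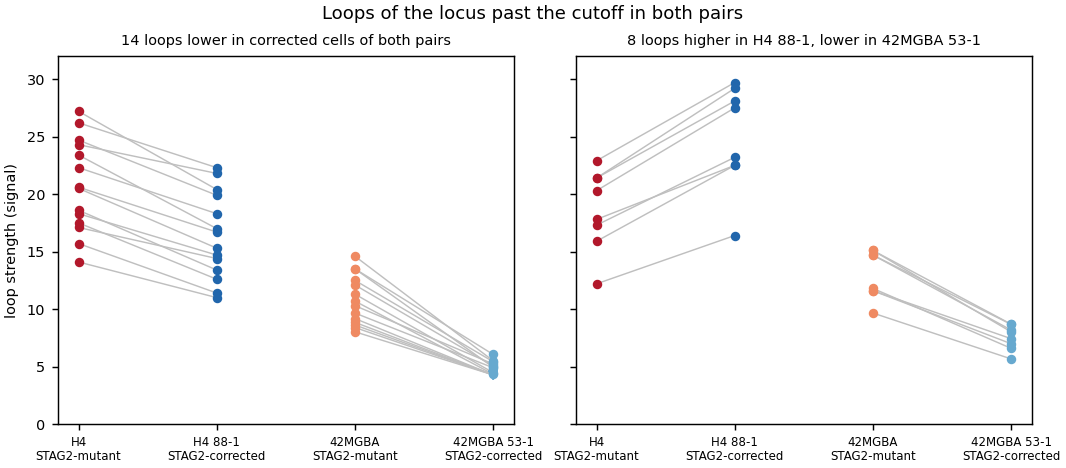
Strength of the 14 loops past the cutoff as weaker in corrected cells of both pairs (left) and of the 8 loops past it in opposite directions (right), with 1 point per loop and cell line and gray lines joining a loop within a pair. Triangles mark loops absent from a list, drawn at its lowest strength. In the left panel all 14 fall from H4 (14.1 to 27.2) to H4 88-1 (11 to 22.3), and in the right panel all 8 climb from H4 (12.2 to 22.9) to H4 88-1 (16.4 to 29.7), while both sets are lower in 42MGBA 53-1 than in 42MGBA.

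The CD44 start was the exception to the lower strength in 42MGBA 53-1, and it also separated H4 from the other 3 lines. Anchor pairs within 3 kb of the CD44 5′ start numbered 3 in H4 against 30 in H4 88-1, and 39 in 42MGBA against 46 in 42MGBA 53-1, so that the line with the fewest loops in the interval had the most there. The highest strength at this start was 4.44 in H4 against 8.46 in H4 88-1, and 7.28 in 42MGBA against 7.84 in 42MGBA 53-1, and H4 was the lowest line. Of the 60 distinct pairs, 38 had the other anchor in PDHX, with 2, 24, 29 and 36 listed in these lines. A further 16 had it between PDHX and CD44, of which 10 were listed in 42MGBA, 10 in 42MGBA 53-1 and none in H4 or H4 88-1. In the other 6 it lay in SLC1A2, and these were listed in H4 (1) and H4 88-1 (6) alone, at 4.26 or less and 6.72 or less.

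In the H4 pair all 12 merged loops at the CD44 start were higher in H4 88-1. All 12 entered the merge through H4 88-1 alone, so that this direction followed from how they were chosen. The median log2 ratio was 0.78, but 11 were absent from the list of H4, so that their ratios are lower bounds. Of the 12, 4 (33.3%) were specific to corrected cells, beside 1.94% of all merged loops, and these 4 are neighbors in the same joined group. With an intercept in the regression 1 of the 12 was specific to corrected cells, and with the log2 ratio scored 6 were. The leading one joined chr11:35017480-35022420 in PDHX to chr11:35163121-35167758 just inside CD44, the anchor with the minus-strand match, with strengths of 8.46 in H4 88-1, and 5.64 in 42MGBA against 6.55 in 42MGBA 53-1. It was absent from H4 and so at least 2.04-fold higher in H4 88-1 (z-score 2.38). In the 42MGBA pair 9 of 13 merged loops at the CD44 5′ start were higher in 42MGBA 53-1, with a median of 0.14 beside -0.66 over the chromosome 11 stretch. None of the 13 passed the cutoff. When the line was fitted to the chromosome 11 stretch alone, a setting added after the data were seen, 10 of the 13 passed it as specific to corrected cells, with a highest z-score of 4.31. With 1 pooled list per line, whether this difference exceeds the replicate error cannot be computed. The strongest loop at CD44 in 42MGBA 53-1 joined chr11:35022421-35026985 to chr11:35158212-35163120, with 7.49 in H4 88-1, and 6.36 in 42MGBA against 7.84 in 42MGBA 53-1.

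A second set of CD44 contacts ran to the body of the gene. It comprised 28 loops between chr11:34993699-35031882 in PDHX and chr11:35181809-35210714 in CD44. None was listed in H4, while H4 88-1 listed 10, 42MGBA all 28 and 42MGBA 53-1 listed 17, with highest strengths of 5.29, 8.62 and 5.95 in the latter 3. The strongest CD44 loop of 42MGBA, chr11:34998101-35003104 to chr11:35191444-35196341, belonged to this set, with 8.62 against 5.59 in 42MGBA 53-1. The CD44 loop with the largest absolute z-score of the 42MGBA pair (-1.81) lay beside it, at chr11:35003105-35007629, with 7.76 in 42MGBA and absent from 42MGBA 53-1. None of the 28 was higher in 42MGBA 53-1 than in 42MGBA and the median was -0.58. The strongest of them in 42MGBA 53-1 ranked 91235, so that nearly all entered the merge through 42MGBA alone, which favors this direction. With the transcript starts inside the gene included, CD44 had 32 merged loops in the 42MGBA pair with a median of -0.40, of which 9 were higher in 42MGBA 53-1 and 27 lay above the median of the stretch. H4 had its strongest CD44 loop elsewhere, between an internal start (chr11:35205724-35210714) and chr11:35406441-35411399 in SLC1A2, at 5.49 against 4.72 in H4 88-1. Loops of CD44 with SLC1A2 start sites were weak throughout, at 5.49 or less in H4, 6.72 in H4 88-1 and 5.56 in 42MGBA, and none was listed in 42MGBA 53-1.

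**Figure D5:**
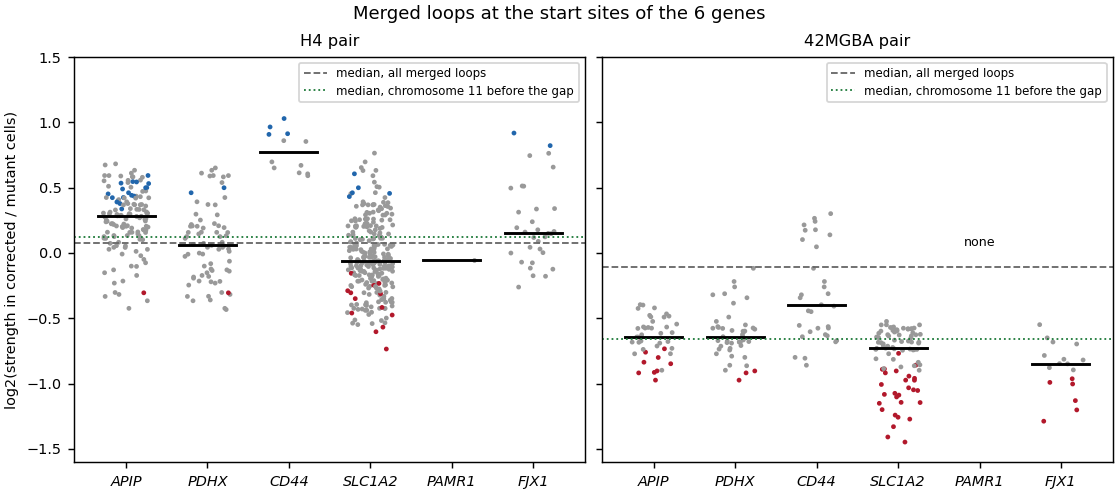
Log2 ratio of corrected to mutant strength for each merged loop assigned to one of the 6 genes, with the H4 pair on the left and the 42MGBA pair on the right, and with black bars at the medians. Red and blue points are specific to mutant and corrected cells, the dashed line is the median of all merged loops, and the dotted line is the median of chromosome 11 before the gap. CD44 has the highest median of the 6 genes in both panels (0.78 and -0.40), and SLC1A2 holds most of the red points.

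By gene, the 5′ part of SLC1A2 and its internal starts differed in direction in the H4 pair. Over all its start sites SLC1A2 gave 275 merged loops there, with a median log2 ratio of -0.06. Of these, 13 (4.73%) were specific to mutant and 5 (1.82%) to corrected cells, beside 2.17% and 1.94% of all merged loops. At the 5′ start alone it had 36, none past the cutoff, 29 higher in H4 88-1 and a median of 0.28. In the 42MGBA pair SLC1A2 had 89 merged loops, all lower in 42MGBA 53-1, with 58 absent from the corrected list. Its strongest loop in 42MGBA 53-1 ranked 85160, so that nearly all of the 89 entered the merge through 42MGBA alone. Of the 89, 28 (31.5%) were specific to mutant cells, beside 18.2% of the stretch. The SLC1A2 median of -0.73 was 0.07 below that of the stretch. The numbers of anchor pairs listed at SLC1A2 were 509 in H4 against 400 in H4 88-1, and 248 in 42MGBA against 38 in 42MGBA 53-1.

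PDHX and APIP share 98 anchor pairs, since both start in the anchor chr11:34937249-34942014, and their values are not independent. For PDHX, the H4 pair gave 74 merged loops with a median of 0.06. Of these, 1 (1.35%) was specific to mutant and 2 (2.7%) to corrected cells, near the 2.17% and 1.94% of all merged loops. Its strongest loop in H4 joined the shared start anchor to chr11:35406441-35411399 in SLC1A2, with strengths of 20.6, 16.7, 10.3 and 5.23 in the order of lines used above, and was its leading loop in the H4 pair (z-score -2.76). The 42MGBA pair gave 47 merged loops with a median of -0.64, and 3 (6.38%) were specific to mutant cells, beside 18.2% of the stretch. The leading loop joined the start to chr11:35411400-35416309 at 11 and 5.8 (z-score -2.66). That loop was also the strongest PDHX loop of H4 88-1, at 18.7, whereas 42MGBA 53-1 had its strongest one between chr11:34993699-34998100 and CD44, at 5.95 against 7.54 in 42MGBA. For APIP, the H4 pair gave 136 merged loops, of which 119 were higher in H4 88-1, with a median of 0.28. Of these, 17 (12.5%) were specific to corrected cells, beside 1.94% of all merged loops. Its strongest loop in the H4 pair joined chr11:34606578-34611409 to chr11:34907975-34912745, with 22.9 in H4 against 29.7 in H4 88-1, and 15.1 in 42MGBA against 8.02 in 42MGBA 53-1, and it had the largest absolute z-score of APIP in the 42MGBA pair (-3.61). In the 42MGBA pair all 43 loops were lower in 42MGBA 53-1, and 10 (23.3%) were specific to mutant cells, beside 18.2% of the stretch. The median was -0.64, which is within 0.02 of the stretch.

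FJX1 looped away from the other members. Its main group joined chr11:35620124-35654083 to a region beyond the interval at chr11:36250915-36314084, which overlaps LDLRAD3 and COMMD9, over 616 to 674 kb. The plus-strand and minus-strand matches printed for FJX1 lie in the regions joined. The strongest loop of both H4 lines, chr11:35634705-35639711 to chr11:36280145-36284818, had strengths of 13.0 in H4, 14.1 in H4 88-1 and 9.83 in 42MGBA and was absent from 42MGBA 53-1, while 1 pair of the group was listed in 42MGBA 53-1, at 4.57. H4 and H4 88-1 were close, with no loop of the group past the cutoff and a median log2 ratio of 0.13. Of its 17 loops merged in the 42MGBA pair, 7 were specific to mutant cells and the median was -0.85, below the stretch. The leading FJX1 loop of the 42MGBA pair, chr11:35634705-35639711 to chr11:36275200-36280144, had strengths of 11.3, 12.7 and 10.4 in H4, H4 88-1 and 42MGBA, and was absent from 42MGBA 53-1 and so at least 2.44-fold lower there (z-score -3.33). The strongest FJX1 loop of 42MGBA 53-1 was a different one, to an intron of TRIM44 (chr11:35817739-35822708), at 4.98 and listed in no other line.

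A smaller FJX1 group ended in LDLRAD3, which encodes a membrane protein of the LDL receptor family. All 13 of its loops merged in the H4 pair were higher in H4 88-1, with a median of 0.66 and 3 specific to corrected cells. The strongest loop of the group in H4 ranked 107256, so that all 13 entered the merge through H4 88-1 alone, which favors this direction. Its leading loop, chr11:35634705-35639711 to chr11:36167721-36172732, had strengths of 5.38 in H4 against 9.51 in H4 88-1, and 7.72 in 42MGBA against 4.39 in 42MGBA 53-1, a 1.77-fold difference in the H4 pair (z-score 2.25). H4 88-1 was the highest line and 42MGBA 53-1 the lowest. Within 3 kb of its start sites FJX1 had 32 merged loops in the H4 pair with a median of 0.16. It had 17 in the 42MGBA pair, all lower in 42MGBA 53-1, with a median of -0.85 and 6 (35.3%) specific to mutant cells. The strongest FJX1 loop of 42MGBA 53-1 ranked 176016, so that all 17 entered the merge through 42MGBA alone.

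PAMR1 had few loops. The lists of H4 and H4 88-1 held 12 and 24 anchor pairs at its start sites, none of them at its 5′ start, and those of 42MGBA and 42MGBA 53-1 held 0. Its strongest loop joined chr11:34942015-34946875 in PDHX to chr11:35454342-35458792, at 5.99 in H4 and 5.77 in H4 88-1, and was its only merged loop. The PAMR1 body, at chr11:35473196-35531835, joined chr11:36270345-36299290 in a group of 54 loops, all higher in H4 88-1, with 4 specific to corrected cells and a median of 0.34. The highest strength of that group was 7.74 in H4, 9.87 in H4 88-1 and 6.82 in 42MGBA, and none of it was listed in 42MGBA 53-1.

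The pattern of SLC1A2 was set beside that of 2119 other protein-coding genes with at least 5 merged loops in each pair. By the distance of their median log2 ratios in the 2 pairs, the 5 nearest were ABTB2 on chromosome 11 (-0.05 and -0.72), NKX2-2 on chromosome 20 (-0.06 and -0.71), CALCRL on chromosome 2 (-0.04 and -0.77), ALDH8A1 on chromosome 6 (-0.10 and -0.69) and BNIP2 on chromosome 15 (-0.09 and -0.68). In each case the value of the H4 pair comes first.

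Genes that act with the members were counted beside all 20176 protein-coding genes of the annotation, of which the H4 pair had a merged loop at 23.6% and the 42MGBA pair at 22.6%. Of the 6 other glutamate and neutral amino acid transporters of the SLC1 family, 2 had a merged loop in each pair (SLC1A3 and SLC1A5). None had a mutant-specific loop, and 1, the glial glutamate transporter gene SLC1A3, had a corrected-specific loop in the 42MGBA pair. Of 10 genes of the pyruvate dehydrogenase complex and its regulators, the H4 pair had a merged loop at 3 and the 42MGBA pair at 2. None had a mutant-specific loop, and PDK2, a kinase that inhibits the complex, had 1 corrected-specific loop in the H4 pair. Of 5 genes of methionine salvage, 1 and 2 had a merged loop in the respective pairs, and of 12 genes of hyaluronan synthesis and CD44 partners, 6 and 4, with none past the cutoff in either pair. Over all genes, 5.86% of the 4765 with a merged loop in the H4 pair and 7.14% of the 4568 in the 42MGBA pair had a mutant-specific one, and 9.55% and 6.37% a corrected-specific one.

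The limits of the interval set which loops were counted. Just inside its left edge, chr11:34606578-34611409 to chr11:34849807-34854801 had strengths of 7.89 in H4 and 7.66 in H4 88-1, and just outside, the pair ending at chr11:34845342-34849806 had 7.02 and 7.04, so that the left edge cut through the APIP group. At the right edge, the last pair inside began at chr11:35663876-35668798 with 4.50 and the first outside at chr11:35827598-35832449 with 5.24, both in H4 88-1. Flanks of the same length had medians of -0.07 on the left (236 loops) and -0.06 on the right (87) in the H4 pair, and -0.68 (125) and -0.56 (50) in the 42MGBA pair. In the 42MGBA pair, 27.2% of the left flank and 0% of the right were specific to mutant cells. In the H4 pair, 0.847% and 0% were specific to mutant cells, and 0% and 9.2% to corrected cells. With both anchors required inside the interval, which leaves out the loops from left of APIP and those of PAMR1 and FJX1 that end beyond the interval, the median of the H4 pair turned from 0.13 to -0.075.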

How the data were processed

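Hi-C libraries were made with the Arima Hi-C+ kit. Per the study's methods and the submitters' processing notes, reads were shortened and mapped to hg19 by Bowtie, non-unique and duplicate pairs were discarded, and the remainder was binned into anchors of 5 kb before bias correction (HiCorr) and enhancement (LoopEnhance, DeepLoop). What the authors deposited is a signal (loop strength) for 300000 anchor pairs per cell line, 2 replicates being pooled. Enhancement smooths the map, so that neighboring anchor pairs are not independent. The lists hold no read counts, so the depth behind a strength is unknown and no interval or test was computed.

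The 100000 strongest loops of the lines of a pair were merged, as in the study's methods. Where a line did not list a loop, its lowest listed strength was used, so that the fold is a lower bound. The form of the regression is not given in the study, and a line through the origin was used here, with the z-score of the residual and a two-sided 0.05 cutoff (1.96). The slopes were 1.02 (H4) and 0.897 (42MGBA). The cutoff ranks loops against each other and is no test against replicates. Log2 ratios are corrected over mutant. Loop sizes are measured between anchor midpoints, and loops with both anchors within 10 kb were joined into groups.

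Genes came from GENCODE release 44 on hg19, and sequences from the GRCh37 genome. The motif (CCA, any 2 bases, AG, any 2 bases, GGC) was searched on both strands, and matches may overlap other motifs. The interval, its members, the gene lists and the motif were chosen with earlier results of these data known. The text names, for each gene, its strongest loop per line and its merged loop with the largest absolute z-score per pair. For the interval it names the 5 loops with the largest sums among those mutant-specific in both pairs. Group leaders, the opposite-direction loops and the view along SLC1A2 were chosen after their values were seen. The script was tested on simulated data. Python 3.11.15, numpy, pandas, scipy and matplotlib were used. The 12 RNA-seq samples were not analysed here.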

Additional observations from a re-analysis of the deposited data

Results flagged for a closer look

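In the comparison of the 2 pairs, 8 loops of the interval went in opposite directions past the cutoff. They were higher in H4 88-1 than in H4 and lower in 42MGBA 53-1 than in 42MGBA. The leading one, from left of APIP into APIP, had z-scores of 4.23 (H4) and -3.2 (42MGBA). The difference between the pairs was not tested, since each cell line has 1 pooled list, and 7 of the 8 are neighbors that share signal. When the line was fitted to chromosome 11 before the gap alone, the z-score of that loop in the 42MGBA pair was -0.88.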

How the results depend on the processing

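No paired analysis was possible because each list pools the 2 replicates of a cell line, and for the same reason no replicate could be left out. Counts are given in the order H4-specific, H4 88-1-specific, 42MGBA-specific and mutant-specific in both pairs, as reported 29, 35, 51 and 14. They were 5, 70, 53 and 0 with an intercept in the regression and 5, 15, 63 and 0 with the log2 ratio scored. At a two-sided 0.01 cutoff they were 13, 12, 27 and 7. Merging the 200000 strongest loops gave 44, 73, 89 and 18, and merging the 50000 strongest gave 18, 19, 38 and 10. Over loops listed in both lines they were 31, 36, 40 and 9, and with both anchors inside the interval 29, 9, 33 and 14. Joined neighbors numbered 3, 6, 5 and 1. The fit on chromosome 11 alone gave 36, 23, 18 and 7, with 1 loop specific to 42MGBA 53-1. The fit on chromosome 11 before the gap, added after the data were seen, gave 33, 21, 12 and 7, with 11 specific to 42MGBA 53-1. In the other alternatives that count was 0. Scaling each list to its median cannot change these counts, since slope and residuals scale alike, and scoring loops among those of similar size gave 30, 48, 46 and 11.

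Alternatives of the regression, the cutoff or the scoring by size cannot change the median log2 ratio of the interval. Under the other alternatives this median kept its sign in the 42MGBA pair. In the H4 pair it turned to -0.075 when both anchors had to lie inside the interval, which leaves out the loops from left of APIP and those that end beyond FJX1. As no replicates are given, medians were held against the SD over the loops of the interval. At single genes in the H4 pair, PAMR1 turned to 0.22 with start sites taken within 10 kb and PDHX to -0.066 with the lists scaled to their chromosome 11 medians, and the cause was not tested. With the 5′ start alone, a setting added after the data were seen, SLC1A2 turned to 0.28 in the H4 pair and CD44 to 0.14 in the 42MGBA pair, since the internal starts were then left out. Without read counts, the depth behind each strength is unknown.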
